A study of Mus musculus with 6 samples.

Results

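The cadherins and protocadherins are a superfamily of calcium-dependent adhesion proteins whose extracellular cadherin repeats bind partners on neighbouring cells. Their genes were taken as the protein-coding rows of the count table whose symbols begin with Cdh, Cdhr, Pcdh, Dsg, Dsc, Dchs, Celsr or Clstn followed by a number, or are *Fat1* to *Fat4* (for Pcdh, with any ending), which gave 106 of 28262 genes. Expression was measured by RNA-seq of total RNA in 6 libraries of Sertoli cells, the supporting epithelial cells of the seminiferous tubule, purified from the testes of 20-day-old C57BL/6 mice and cultured without treatment. There were 3 libraries of *Pa1F/F* cells, which carry floxed *Pa1* alleles and served as the control, and 3 libraries of *Pa1-/-* cells, in which the floxed alleles are deleted by a Cre recombinase under the *Amh* promoter, active in Sertoli cells. Whether the control mice carried the Cre transgene, and whether each library came from 1 animal or from a pool, is not given in the sources used here, so the p-values measure only the spread between these libraries. The comparison of *Pa1-/-* with *Pa1F/F* cells asks which adhesion genes differ in level when PA1, a subunit of the MLL3/4 histone methyltransferase complex, is deleted in Sertoli cells. *Pa1* itself was not analysed here.

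Classical cadherins form adherens junctions and hold on to actin through catenins, and N-cadherin (*Cdh2*) joins Sertoli cells to each other and to germ cells, at the blood-testis barrier among other places. Desmosomal cadherins (desmogleins and desmocollins) attach to intermediate filaments through plakoglobin, plakophilins and desmoplakin. The giant cadherins of the Fat and Dachsous families and the seven-pass Celsr proteins act in planar polarity, that is, the orientation of cells within a sheet. The clustered protocadherins lie in the alpha, beta and gamma clusters on chromosome 18, where each gene has its own promoter and first exon. In the alpha and gamma clusters these variable exons are spliced to constant exons that all genes of the cluster share.

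Total counts on genes lay between 13203757 and 16231443 per library, and values below are counts normalized by edgeR's TMM factors (0.990 to 1.03) to the mean library size. The libraries of a genotype were not equally alike. *Pa1F/F* replicates 1 and 3 had a chi-square of 2.23 for each degree of freedom across genes and *Pa1-/-* replicates 1 and 2 had 1.68, while every pair with *Pa1F/F* replicate 2 or *Pa1-/-* replicate 3 lay between 18.6 and 31.2. The close pairs still differed by more than sampling noise, which cannot show that their libraries are independent. The labels do not say whether a close pair came from the same culture. All 6 libraries were kept as separate replicates, and calls with the close pairs summed are given below. Summed markers of Sertoli cells lay between 302628 and 319276 in *Pa1F/F* and between 191547 and 252253 in *Pa1-/-* libraries. The summed lists of Leydig cells (11679 to 13400 against 2423 to 4230) and macrophages (1857 to 2029 against 1115 to 1385) were lower in every *Pa1-/-* library, those of peritubular myoid (5654 to 7662 against 23388 to 28509), mesothelial (180 to 250 against 513 to 612) and rete testis cells (280 to 317 against 448 to 474, without the member *Cdh16*, nearly all of it *Epcam*) were higher, and those of spermatogonia (2839 to 3258 against 1530 to 2939, nearly all of it *Uchl1*), spermatocytes and spermatids (125 to 140 against 113 to 155) and endothelial cells (122 to 198 against 110 to 511) overlapped. The other 3 tested spermatogonial markers, *Kit*, *Ddx4* and *Gfra1*, were each lower in *Pa1-/-* cells (log2 fold changes of -1.92, -1.64 and -1.57). Nearly all of the Leydig cell sum was *Star* (-1.59) and *Cyp11a1* (-3.59). The other tested Leydig marker, *Hsd3b1*, was lower too (-1.99). *Cyp17a1*, *Hsd3b6*, *Insl3* and *Lhcgr* had at most 15 counts in a library and were not tested. In the macrophage list *Mrc1* made up most of the *Pa1-/-* sum and did not pass (log2 fold change 0.17), while 6 of the other 7 tested markers were lower (-3.38 to -1.65). The mesothelial list was split, with *Krt19*, *Upk3b*, *Lrrn4* and *Muc16* higher (1.41 to 5.00) and *Upk1b* (0.38), *Msln* (-0.53) and *Krt8* (-0.77) not past the test. In the peritubular myoid list *Acta2* (2.15) and *Myl9* (1.81) were higher and the other 4 tested markers did not pass (0.22 to 1.72), and in the endothelial list *Pecam1* was lower (-1.73) and *Kdr* did not pass (1.47). Most of the Sertoli cell sum was *Clu* and *Ctsl* (-0.69 and -0.33), while *Sox9* (-0.12) and *Wt1* (0.13) did not pass. By the rule given below, 5 of the 19 tested Sertoli markers were lower and none was higher. The lower ones were *Sox8* (-1.85), *Gdnf* (-1.32), *Shbg* (-1.29), *Inha* (-1.23) and *Inhbb*. The adjusted p alone was passed by 8 lower markers, these 5 among them, and by 1 higher marker, *Dmrt1* (0.64). In such bulk RNA, fewer cells of a type and less RNA per cell cannot be told apart, and the part of these shifts in the results below was not tested.

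Of the 106 genes, 68 passed the filter on low counts and were tested (edgeR's quasi-likelihood test, Benjamini-Hochberg adjustment over 14919 genes). Genes with an adjusted p under 0.05 and a log2 fold change of 1 or more in either direction were called differentially expressed. By this rule 23 of the 68 differed between genotypes, or 33.8% against 12.0% of all tested genes. In *Pa1-/-* cells 16 members were higher and 7 were lower, where 5.44% of all tested genes were higher and 6.56% were lower. The median log2 fold change was 0.36 over the tested members and 0.00 over all tested genes. The 2 genotypes did not overlap in 43 of the 68 members (63.2%, against 52.4% of all tested genes). The adjusted p alone was passed by 31 members (45.6%, against 35.3%). Of these, 21 were higher and 10 lower, beside 18.2% and 17.1% of all tested genes. Of the 23, 8 were also called when the close library pairs were summed, namely *Cdh10*, *Cdh19*, *Cdh23*, *Clstn3*, *Pcdh7*, *Pcdhac2*, *Pcdhga2* and *Pcdhgc5*, and 9 had a change shown to exceed a log2 value of 1 by edgeR's glmTreat. The 38 members that were not tested had at most 30 counts in a library (*Fat3*), with a median of 5 counts over all 6 libraries together, and 22 of all 106 members had no more than 3 counts in any library. *Cdhr1*, *Pcdh11x* and *Pcdhb2* passed the filter through the *Pa1-/-* libraries alone and *Celsr3* through the *Pa1F/F* libraries alone, so that a difference in these 4 is in part a condition of being tested.

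**Figure D1:**
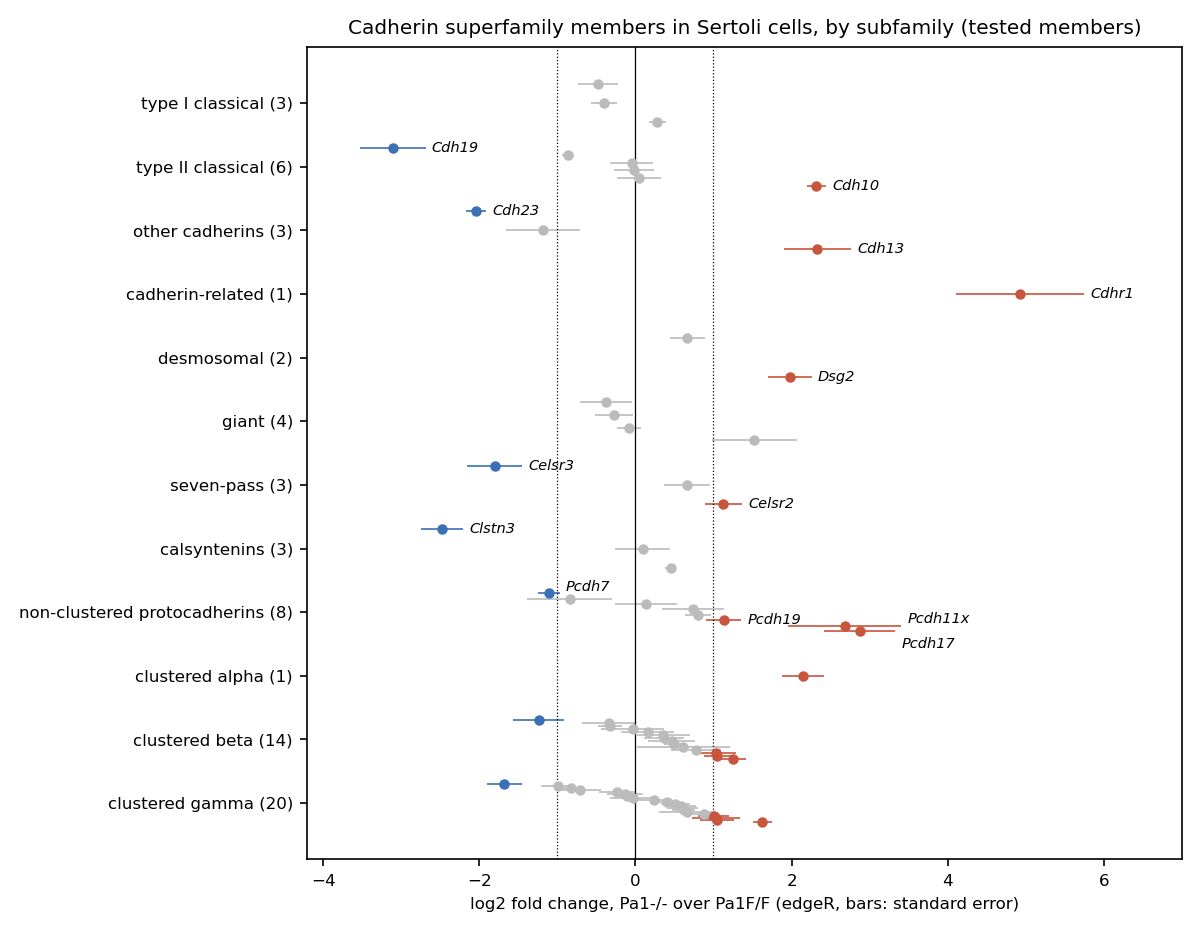
Log2 fold change of *Pa1-/-* over *Pa1F/F* cells (x axis, points, with bars for the standard error) for the 68 tested members, grouped by subfamily on the y axis with the number tested in parentheses. Coloured points are the 23 differentially expressed members (red higher, blue lower), grey points the others, and dotted lines mark a log2 change of 1 in each direction; no type I classical or giant cadherin is coloured.

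Among the type I classical cadherins, which give adherens junctions their strongest adhesion, none of the 3 tested genes passed the test. *Cdh2* was by far the most abundant of them, with normalized counts of 7961, 7093 and 8013 in *Pa1F/F* replicates 1 to 3 and 10057, 10083 and 7909 in *Pa1-/-* replicates 1 to 3. Its *Pa1-/-* replicates 1 and 2 lay above all controls and replicate 3 lay among them, and the log2 fold change was 0.28 (SE 0.11, adjusted p = 0.0904). P-cadherin (*Cdh3*) had 1733, 1369 and 1458 normalized counts in *Pa1F/F* and 1302, 1278 and 874 in *Pa1-/-* cells. The *Pa1-/-* values of *Cdh3* were all below the controls, with a log2 fold change of -0.40 (SE 0.17, adjusted p = 0.105). E-cadherin (*Cdh1*) stood near the low end of detection, at 25.4, 28.1 and 27.3 against 21.5, 22.5 and 14.0 normalized counts (log2 fold change -0.48, SE 0.25, adjusted p = 0.189). *Cdh4* (R-cadherin) and *Cdh15* (M-cadherin) had at most 4 counts in a library and were not tested.

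The type II classical cadherins held changes in both directions. *Cdh10*, a type II cadherin best known from the brain (GRCm38 chr15:18818947-19014236, plus strand), had 63.4, 55.2 and 53.5 normalized counts in *Pa1F/F* and 298, 295 and 266 in *Pa1-/-* cells. The 3 *Pa1-/-* libraries lay close together and far above the controls, a log2 fold change of 2.31 (SE 0.12, adjusted p = 9.36e-05). *Cdh19* (chr1:110888326-110977584, minus strand), a cadherin known from Schwann cell precursors, went the other way, from 255, 199 and 236 to 46.9, 20.3 and 12.02 normalized counts. This was the largest decrease among the members, with a log2 fold change of -3.11 (SE 0.42, adjusted p = 0.00221) that became -3.83 without *Pa1-/-* replicate 1. There are 2 predicted genes within *Cdh19* on the same strand, *Gm36944* with a log2 fold change of -2.76 and *Gm38255* with 13.8 against 2.12 normalized counts, and which gene their reads came from cannot be told from the counts.

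*Cdh5*, or VE-cadherin, which is best known as the cadherin of endothelial junctions, was abundant in these libraries. It had 1592, 1599 and 1565 normalized counts in *Pa1F/F* and 811, 829 and 967 in *Pa1-/-* cells. The genotypes were well apart, and the adjusted p was 0.000536, but the log2 fold change of -0.87 (SE 0.08) was short of the threshold of 1. In every library the *Cdh5* count alone was higher than the sum of 7 endothelial markers, among which *Cldn5* had no count in 5 of 6 libraries and *Emcn* none in 4. *Pecam1* had between 37.2 and 78.4 normalized counts in *Pa1F/F* and between 13.0 and 20.3 in *Pa1-/-* cells, and *Kdr* 485 in *Pa1-/-* replicate 3 and between 62.5 and 99.7 in the other 5 libraries. Counts of different genes do not measure the share of a cell type, and the part of endothelial cells in the *Cdh5* values was not tested.

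OB-cadherin (*Cdh11*), known from mesenchymal cells, had 739, 772 and 825 normalized counts in *Pa1F/F* and 580, 602 and 1229 in *Pa1-/-* cells. Replicates 1 and 2 of *Pa1-/-* were thus below every control and replicate 3 above every control, and the log2 fold change of 0.05 (SE 0.29, adjusted p = 0.915) ranged from -0.40 to 0.24 as single libraries were left out. In 6 of 7 peritubular myoid markers the highest value was in the same library, as for *Myh11* with 1605 normalized counts against at most 649 elsewhere. The markers did not move as 1 group, since *Acta2* and *Myl9* were higher in all *Pa1-/-* libraries (*Myl9* at 11585, 11209 and 9870.5 against at most 3498), while *Myh11*, *Des* and *Actg2* lay below all controls in *Pa1-/-* replicates 1 and 2. The part of these cells in the *Cdh11* values was not tested. *Cdh6* and *Cdh24* had log2 fold changes of -0.02 and -0.05, and the remaining 4 type II genes were not tested.

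Of the cadherins outside the classical types, *Cdh23*, which forms the tip links of inner ear hair cells together with *Pcdh15*, showed the steadiest decrease. It had 1330, 1287 and 1328 normalized counts in *Pa1F/F* and 325, 374 and 259 in *Pa1-/-* cells. No *Pa1-/-* library came near the controls, and the log2 fold change was -2.04 (SE 0.13, adjusted p = 0.000169). The gene spans chr10:60302748-60696490 on the minus strand and contains *Vsir* on the other strand, whose own counts were low and similar (29.3 and 31.4 on average). *Pcdh15*, its partner in the tip link, had at most 3 counts in a library. T-cadherin (*Cdh13*, chr8:118283733-119324921, plus strand), which is held in the membrane by a lipid anchor and has no cytoplasmic tail, was higher in *Pa1-/-* cells, at 134, 109 and 244 against 34.4, 17.4 and 45.1 normalized counts. All 3 *Pa1-/-* libraries exceeded the controls, with replicate 3 the highest, and the log2 fold change was 2.33 (SE 0.43, adjusted p = 0.00675). *Cdh17* had a log2 fold change of -1.18 (SE 0.47, adjusted p = 0.0945) at 2.25 to 21.0 normalized counts. *Cdhr1*, a photoreceptor cadherin and the only 1 of 5 cadherin-related genes tested, had 1, 3 and 3 raw counts in *Pa1F/F* and 104, 86 and 20 in *Pa1-/-* cells. Its control libraries were at the floor of 3 counts and *Pa1-/-* replicate 3 lay well below replicates 1 and 2. The ratio of the summed counts, scaled to library size, was 31.9 (95% exact interval 15.2 to 80.2, counting error only), and the log2 fold change of 4.92 (SE 0.82, adjusted p = 0.00465) depends on the prior count.

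**Figure D2:**
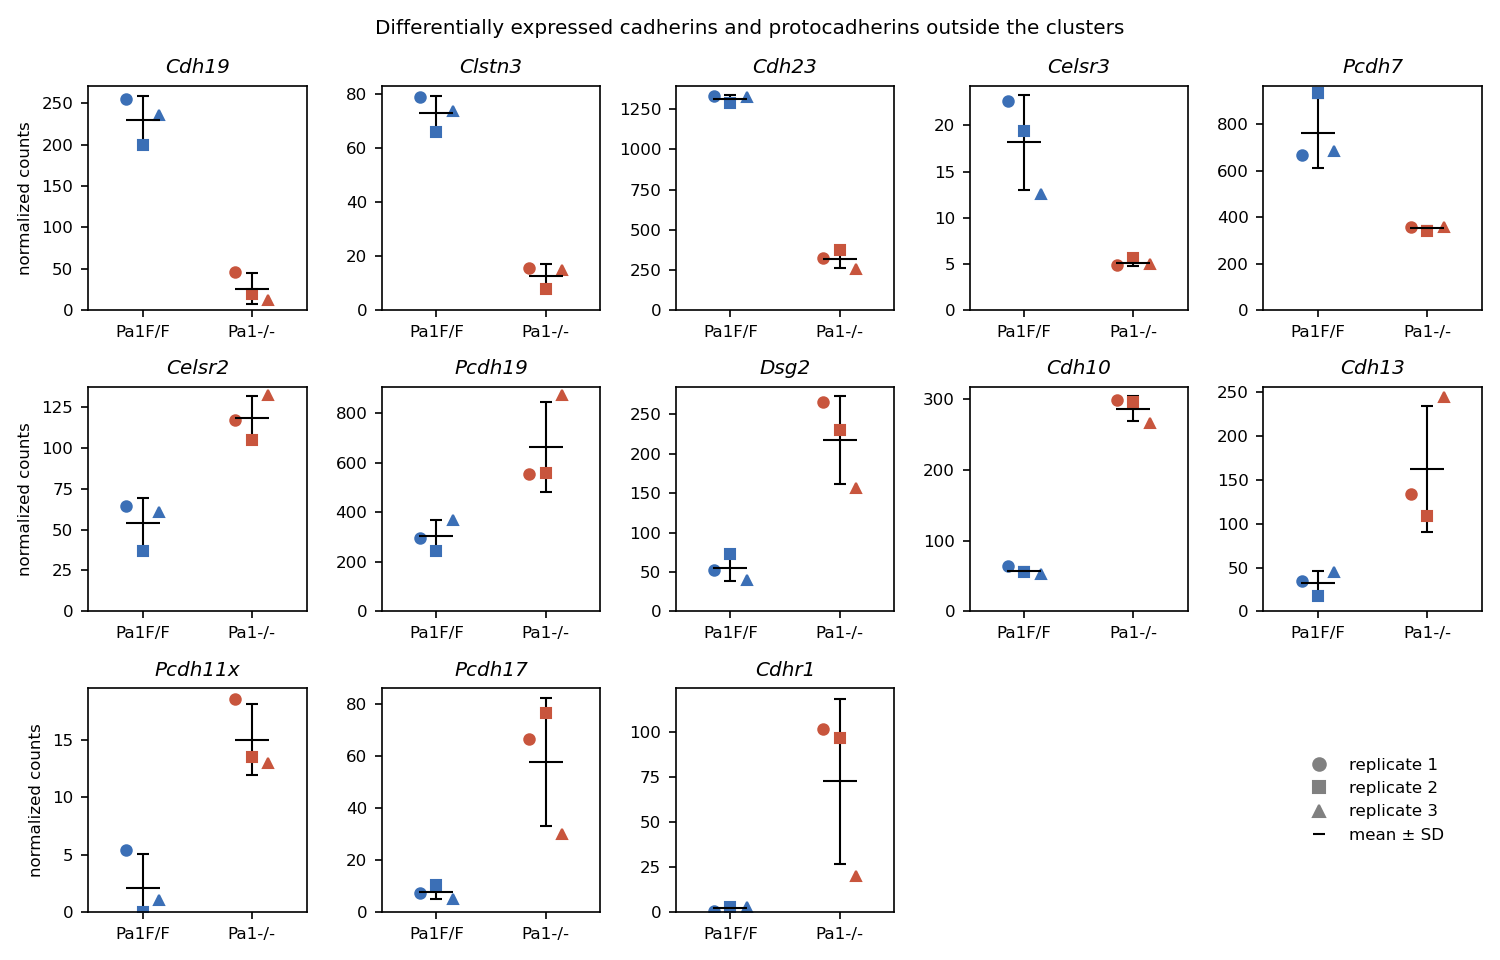
Normalized counts (y axis, a separate linear axis from 0 for each gene) in the 3 *Pa1F/F* libraries (blue) and 3 *Pa1-/-* libraries (red) for the 13 differentially expressed members outside the clusters, with replicate numbers as symbols and black bars for mean ± SD. The genes run from *Cdh19*, the most lowered, to *Cdhr1*, the most raised, and the genotypes do not overlap in any of them; *Pa1-/-* replicate 3 stands apart from replicates 1 and 2 in *Cdhr1*, *Pcdh17*, *Cdh13* and *Pcdh19*.

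Of the 6 desmosomal cadherins, desmoglein 2 (*Dsg2*) and desmocollin 2 (*Dsc2*), the pair of simple epithelia, were tested, and the others, known from stratified epithelia, had too few counts. *Dsg2* had 52.6, 72.6 and 39.9 normalized counts in *Pa1F/F* and 266, 230 and 156 in *Pa1-/-* cells. Every *Pa1-/-* library was above the highest control, a log2 fold change of 1.98 (SE 0.28, adjusted p = 0.00266). *Dsc2* had 101, 85.2 and 96.5 normalized counts in *Pa1F/F* and 169, 177 and 103 in *Pa1-/-* cells, with *Pa1-/-* replicate 3 only just above the highest control. Its log2 fold change of 0.66 (SE 0.22, adjusted p = 0.0576) did not pass the test.

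The proteins that bind cadherin tails were examined as a list of 21 catenin and junctional plaque genes. Of 19 tested, 4 were higher in *Pa1-/-* cells and none was lower (21.1%, against 12.0% of all tested genes called and 5.44% called higher). The adjusted p alone was passed by 9, or 47.4% against 35.3% of all tested genes. Of these, 8 were higher, beside 18.2% of all tested genes. Desmoplakin (*Dsp*), which links the desmosome to intermediate filaments, had 400, 343 and 362 normalized counts in *Pa1F/F* and 804, 840 and 859 in *Pa1-/-* cells (log2 fold change 1.18, SE 0.08, adjusted p = 0.000208). Plakophilin 2 (*Pkp2*), an armadillo protein of the desmosomal plaque, had 447, 398 and 356 against 1014, 999 and 830 (log2 fold change 1.24, SE 0.12, adjusted p = 0.000644). Periplakin (*Ppl*), a plakin of the same family as desmoplakin, had 33.5, 26.1 and 30.4 against 121, 131 and 59.1 (log2 fold change 1.78, SE 0.33, adjusted p = 0.00689). Thus *Dsg2* and these 3 plaque genes were all higher in each *Pa1-/-* library than in any control. Other desmosomal and plakin genes of the list did not pass, with log2 fold changes of 0.30 for plakoglobin (*Jup*, adjusted p = 0.0665), -0.42 for *Perp* and -0.51 for envoplakin (*Evpl*), and *Pkp1* and *Pkp3* were not tested. The fourth gene called was delta-catenin (*Ctnnd2*), a p120 relative that binds classical cadherins, at 366, 261 and 394 against 1564, 1535 and 798 normalized counts (log2 fold change 1.93, SE 0.29, adjusted p = 0.00311). Vinculin (*Vcl*), which ties catenins to actin, had a log2 fold change of 0.95 (SE 0.09, adjusted p = 0.000657), and alpha-catulin (*Ctnnal1*) was the 1 gene below the adjusted p with a lower level (log2 fold change -0.60, SE 0.06, adjusted p = 0.000904).

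No giant cadherin passed the test. *Fat1*, an atypical cadherin with a very long row of cadherin repeats, had 19871, 17319 and 21124 normalized counts in *Pa1F/F* and 20072, 20513 and 14491 in *Pa1-/-* cells. The genotypes overlapped, with the lowest value in *Pa1-/-* replicate 3, and the log2 fold change was -0.08 (SE 0.15, adjusted p = 0.706). *Fat4* had 44.4, 65.8 and 50.3 against 38.1, 38.3 and 56.1 normalized counts (log2 fold change -0.27, SE 0.25, adjusted p = 0.428). Its ligand *Dchs1* had 92.4, 83.3 and 103 against 47.8, 52.9 and 113 (log2 fold change -0.38, SE 0.34, adjusted p = 0.423). In both of this ligand and receptor pair, *Pa1-/-* replicates 1 and 2 were below all controls and replicate 3 was not. The second Dachsous gene, *Dchs2*, showed the opposite split, with 47.1, 65.8 and 55.6 normalized counts in *Pa1F/F* and 217, 221 and 47.1 in *Pa1-/-* cells. Its *Pa1-/-* replicate 3 matched the lowest control to the digits given, and the log2 fold change of 1.52 (SE 0.54, adjusted p = 0.0686) became 1.96 with an adjusted p of 0.000151 when that library was left out. *Fat2* and *Fat3* were not tested, since *Fat2* had at most 4 counts in a library and *Fat3* had 30 counts in *Pa1F/F* replicate 1 and 5 to 9 elsewhere.

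The 3 seven-pass cadherins, which couple cadherin repeats to a receptor-like membrane domain, held 1 gene that was higher, 1 that was lower and 1 that did not pass, beside 5.44% higher and 6.56% lower of all tested genes. *Celsr2* had 64.3, 36.8 and 60.8 normalized counts in *Pa1F/F* and 117, 105 and 132 in *Pa1-/-* cells. All *Pa1-/-* values were above the controls, a log2 fold change of 1.13 (SE 0.24, adjusted p = 0.011), which was 0.91 without *Pa1F/F* replicate 2 and then short of the fold threshold. *Celsr3* was low and became lower, from 22.7, 19.4 and 12.6 to 4.88, 5.63 and 5.01 normalized counts (log2 fold change -1.80, SE 0.35, adjusted p = 0.00858). *Celsr1* had 39.9, 36.8 and 47.2 against 53.7, 94.6 and 48.1 normalized counts and did not pass (log2 fold change 0.66, SE 0.30, adjusted p = 0.129). None of 12 planar polarity genes that work with the Fat, Dachsous and Celsr proteins was differentially expressed, and 4 passed the adjusted p alone, a share of 33.3% beside 35.3% of all tested genes. The largest of these changes was that of *Ankrd6*, which encodes diversin, with a log2 fold change of -0.98 (SE 0.26, adjusted p = 0.0249).

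The promoters of *Celsr2*, *Celsr3* and *Cdhr1* are shown because the first pair belong to 1 small family and moved in opposite directions, and *Cdhr1* had the largest increase. Each is the 250 bases that end just before the transcript start in RefSeq (GRCm38.p6), written 5′ to 3′ on the gene's own strand, with the E-box CACCTG, or CAGGTG as its reverse complement, in capitals. The E-box is the letters that Snail and Zeb factors, known repressors of cadherin genes, recognize.
Celsr2 (chr3:108415580-108415829, minus strand): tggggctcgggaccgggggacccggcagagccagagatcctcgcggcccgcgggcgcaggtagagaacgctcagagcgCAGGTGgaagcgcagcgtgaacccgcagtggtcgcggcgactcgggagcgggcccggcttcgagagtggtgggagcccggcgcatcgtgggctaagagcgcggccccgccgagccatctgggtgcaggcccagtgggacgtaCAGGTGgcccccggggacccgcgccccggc
Celsr3 (chr9:108825795-108826044, plus strand): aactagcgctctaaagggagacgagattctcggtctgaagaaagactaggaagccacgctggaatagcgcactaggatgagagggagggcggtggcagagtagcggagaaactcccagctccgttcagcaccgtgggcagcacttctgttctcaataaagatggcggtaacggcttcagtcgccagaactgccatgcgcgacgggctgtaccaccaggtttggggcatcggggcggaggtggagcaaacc
Cdhr1 (chr14:37098348-37098597, minus strand): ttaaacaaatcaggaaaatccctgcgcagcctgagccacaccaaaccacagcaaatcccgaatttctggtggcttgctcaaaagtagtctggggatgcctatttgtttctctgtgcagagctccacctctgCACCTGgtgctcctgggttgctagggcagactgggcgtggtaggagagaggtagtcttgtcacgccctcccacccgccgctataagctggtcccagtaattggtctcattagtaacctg
The *Celsr2* window held the E-box 2 times, the *Cdhr1* window once and the *Celsr3* window not at all. RefSeq promoters matched 34 of the 105 distinct member symbols, with 36 windows, since some genes have more than 1 start. The E-box was in 6 of these 36 windows (16.7%) and in 17.2% of 32851 promoters of all genes, and among 10 windows of differentially expressed members it was in 3. The third of these was 1 of 2 windows of the lowered *Clstn3*, and the windows of the raised *Cdh10*, *Pcdh17* and *Pcdh19* held none. The AP-1 motif TGANTCA, searched on both strands like the E-box, was in none of the 36 windows and in 6.75% of all promoters, so no window of a member held both motifs. These are matches of letters and say nothing of binding.

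The levels of the repressors themselves were mixed. Of 8 tested genes of the Snail, Zeb, Twist and E-protein families, *Snai2* (Slug) was higher in *Pa1-/-* cells, at 110, 86.7 and 131 against 39.0, 58.1 and 44.1 normalized counts (log2 fold change 1.22, SE 0.23, adjusted p = 0.00751). *Snai3* was lower, at 4.88, 1.13 and 0 against 36.2, 12.6 and 44.0 normalized counts, and its log2 fold change of -3.83 (SE 0.83, adjusted p = 0.0127) was -5.56 without *Pa1-/-* replicate 1. Lower too was the E-protein gene *Tcf4* (log2 fold change -1.14, SE 0.12, adjusted p = 0.000911), so that 3 of 8 were called (37.5%, against 12.0% of all tested genes). *Zeb1* and *Zeb2* passed the adjusted p with log2 fold changes of -0.63 and 0.32.

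The calsyntenins, transmembrane proteins with a short stretch of cadherin repeats that bind kinesin light chain, differed among themselves. *Clstn3* (chr6:124430759-124464794, minus strand) had 78.8, 65.8 and 73.4 normalized counts in *Pa1F/F* and 15.6, 7.89 and 15.03 in *Pa1-/-* cells. The genotypes were far apart (log2 fold change -2.48, SE 0.27, adjusted p = 0.00103). *Clstn1*, the abundant member, had 1218, 1248 and 1255 against 1647, 1572 and 1864 normalized counts, a difference below the fold threshold that passed the adjusted p (log2 fold change 0.45, SE 0.07, adjusted p = 0.00426). *Clstn2* had 55.3, 59.1 and 54.5 against 52.7, 33.8 and 93.2, with *Pa1-/-* replicates 1 and 2 below and replicate 3 above all controls (log2 fold change 0.09, SE 0.35, adjusted p = 0.856).

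Of the 12 protocadherins outside the clusters, 8 were tested and 4 were differentially expressed (50.0%, against 12.0% of all tested genes). *Pcdh7* (chr5:57717967-58133230, plus strand), whose tail binds protein phosphatase 1, had 668, 933 and 683 normalized counts in *Pa1F/F* and 359, 342 and 357 in *Pa1-/-* cells. The *Pa1-/-* values were nearly equal and below every control (log2 fold change -1.11, SE 0.14, adjusted p = 0.00173), and the change was -0.94 without *Pa1F/F* replicate 2, the highest control. Of the 5 predicted genes within *Pcdh7* on the same strand, *Gm42635* had the most counts (9.62 against 2.16 normalized counts). *Pcdh19* (chrX:133582860-133688987, minus strand), which acts together with N-cadherin, had 295, 244 and 370 against 555, 559 and 873 (log2 fold change 1.13, SE 0.23, adjusted p = 0.0096). Its highest value was again that of *Pa1-/-* replicate 3, and the log2 fold change fell short of 1 without that library (0.88) or without *Pa1F/F* replicate 2 (0.99).

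Both *Pcdh17* and *Pcdh11x* were near the floor in control cells. *Pcdh17* (chr14:84443563-84537060, plus strand), known to regulate actin assembly in axons, had 7.25, 10.7 and 5.24 normalized counts in *Pa1F/F* and 66.4, 76.6 and 30.1 in *Pa1-/-* cells (log2 fold change 2.87, SE 0.45, adjusted p = 0.00391). The lowest *Pa1-/-* value was in replicate 3 and still above all controls. *Pcdh11x* had 6, 0 and 1 raw counts against 19, 12 and 13, a summed ratio of 6.67 (95% exact interval 2.98 to 17.6, counting error only). Its log2 fold change of 2.68 (SE 0.73, adjusted p = 0.0284) lost the adjusted p without *Pa1-/-* replicate 1 (0.0861) or 2 (0.0628) or *Pa1F/F* replicate 3 (0.1), and became 4.59 without *Pa1F/F* replicate 1. *Pcdh9* passed the adjusted p with a smaller change (log2 fold change 0.81, SE 0.17, adjusted p = 0.0105). *Pcdh18* had 83.4, 62.9 and 70.3 against 77.1, 81.1 and 202 normalized counts, so that its log2 fold change of 0.74 (SE 0.40, adjusted p = 0.191) was 0.13 without *Pa1-/-* replicate 3. *Pcdh1* and *Pcdh8* had log2 fold changes of -0.84 (SE 0.54) and 0.14 (SE 0.40) and did not pass.

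Because longer genes collect more reads, levels of the members outside the clusters were compared between genes per kb of exon. *Fat1* was first with a mean level of 1193 normalized counts per kb over the 6 libraries (range 915 to 1334), followed by *Cdh2* with 983 (818 to 1163), and the ranges of this pair overlapped. *Cdh5* (280, range 185 to 365), *Clstn1* (252, range 209 to 320) and *Cdh3* (203, range 133 to 264) came next, with ranges that overlapped each other but not those of the first pair. *Cdh11* (68.1, range 49.9 to 106), *Pcdh19* (45.8, range 23.1 to 82.7), *Cdh23* (38.8, range 12.3 to 63.1), *Pcdh7* (32.1, range 19.7 to 53.8) and *Pcdh9* (24.4, range 15.2 to 34.9) followed below these, each overlapping its neighbours in the order. This order is of means over both genotypes. *Cdh5* lay above *Clstn1* in every *Pa1F/F* library and below it in every *Pa1-/-* library. By genotype, *Cdh23* stood at 62.4 normalized counts per kb in *Pa1F/F* and 15.2 in *Pa1-/-* cells, and *Pcdh19* at 28.7 and 62.8. The most abundant clustered gene, *Pcdhgc3*, had 86.9 normalized counts per kb (range 57.8 to 115), its shared exons included.

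**Figure D3:**
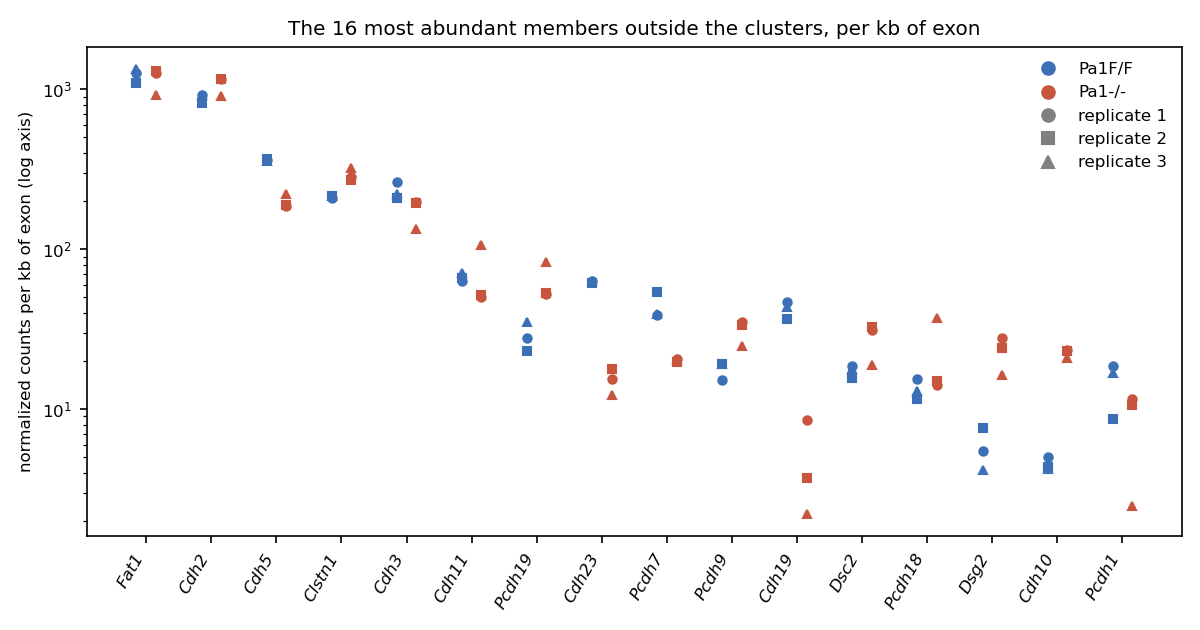
Level in normalized counts per kb of exon (y axis, log scale) of the 16 most abundant tested members outside the clusters, ordered by their mean, in each *Pa1F/F* (blue) and *Pa1-/-* (red) library, with replicate numbers as symbols. *Fat1* and *Cdh2* lie above all others in every library, and the genotypes separate in *Cdh5*, *Cdh23*, *Pcdh7*, *Cdh19* and *Cdh10* among others.

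The clustered protocadherins numbered 51 genes, of which 35 were tested, 8 were higher and 2 were lower in *Pa1-/-* cells (28.6%, against 12.0% of all tested genes called, 5.44% higher and 6.56% lower). Of the alpha cluster only *Pcdhac2* had counts enough to be tested. This C-type gene, of a kind that is not chosen at random as the other variable genes are, had 11.8, 10.7 and 17.8 normalized counts in *Pa1F/F* and 50.8, 59.7 and 68.1 in *Pa1-/-* cells. The *Pa1-/-* libraries were all far above the controls (log2 fold change 2.15, SE 0.26, adjusted p = 0.00161). The other 8 alpha genes together had 10.7 ± 7.02 normalized counts in *Pa1F/F* and 11.4 ± 2.42 in *Pa1-/-* cells (SD, n = 3, exact permutation p = 1). Since reads in shared constant exons may have been given to no gene, all counts of clustered genes describe the reads that were assigned.

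In the beta cluster, whose genes consist of 1 exon each and share no constant exons, 14 of 22 genes were tested, 3 were higher and 1 was lower (28.6% called, against 12.0% of all tested genes). *Pcdhb20* had 42.6, 51.3 and 37.8 normalized counts in *Pa1F/F* and 101, 98.0 and 114 in *Pa1-/-* cells (log2 fold change 1.25, SE 0.18, adjusted p = 0.00256). *Pcdhb22* had 73.4, 66.8 and 89.1 against 143, 148 and 183 (log2 fold change 1.05, SE 0.17, adjusted p = 0.00435), and *Pcdhb18* had 30.8, 31.0 and 17.8 against 53.7, 48.4 and 61.1 (log2 fold change 1.03, SE 0.26, adjusted p = 0.022). In these 3 genes, which lie near each other with *Pcdhb19* and *Pcdhb21* between them, the *Pa1-/-* values were all above the controls. The exons of *Pcdhb22* overlap those of *Pcdhb21* (log2 fold change 0.46, SE 0.30) over 455 bases. *Pcdhb9* was lower, at 13.7, 9.01 and 17.0 against 22.7, 34.9 and 37.8 (log2 fold change -1.24, SE 0.33, adjusted p = 0.0262). *Pcdhb20* passed whichever library was left out. *Pcdhb22* was short of the fold threshold without *Pa1-/-* replicate 3 (0.93) or *Pa1F/F* replicate 2 (0.96). *Pcdhb18* was called in 2 of 6 such fits (without *Pa1-/-* replicate 2 or *Pa1F/F* replicate 2), with log2 fold changes of 0.81 to 1.15 and adjusted p up to 0.0623, and *Pcdhb9* in 2 (without *Pa1-/-* replicate 3 or *Pa1F/F* replicate 1), with -1.45 to -1.02 and up to 0.0931. Summed over the cluster, normalized counts were 584 ± 17.3 in *Pa1F/F* and 780 ± 98.8 in *Pa1-/-* cells (SD, n = 3), higher in 3 of 3 libraries (exact permutation p = 0.1, the smallest that 3 against 3 allows).

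The gamma cluster was the most fully expressed, with all 20 genes tested, of which 4 were higher and 1 was lower (25.0% called, against 12.0% of all tested genes). The total over the cluster hardly differed, at 1772 ± 84.3 normalized counts in *Pa1F/F* and 1824 ± 27.1 in *Pa1-/-* cells (SD, n = 3, exact permutation p = 0.4), but its composition did. The 3 C-type genes at the 3′ end together went from 838 ± 50.0 to 431 ± 47.0 normalized counts, and the 17 genes of the A and B types from 934 ± 56.5 to 1393 ± 44.1, with no overlap between genotypes in either sum (exact permutation p = 0.1 for each). These sums were formed after the values of the single genes had been seen.

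*Pcdhgc3*, the most abundant clustered gene, had 582, 642 and 640 normalized counts in *Pa1F/F* and 326, 323 and 402 in *Pa1-/-* cells. *Pcdhgc4* had 71.6, 72.6 and 74.5 against 28.3, 36.0 and 45.1, and *Pcdhgc5* had 130, 135 and 167 against 58.6, 37.2 and 38.1. All 3 were lower in each *Pa1-/-* library than in any control. Their log2 fold changes were -0.83 (SE 0.11, adjusted p = 0.00202) for *Pcdhgc3*, -0.996 (SE 0.21, adjusted p = 0.0112) for *Pcdhgc4* and -1.68 (SE 0.22, adjusted p = 0.00212) for *Pcdhgc5*. *Pcdhgc4* was just under the fold threshold and passed it without *Pa1-/-* replicate 3 (-1.18), *Pa1F/F* replicate 1 (-1.01) or *Pa1F/F* replicate 2. The C-type gene of the alpha cluster, *Pcdhac2*, thus moved in the direction opposite to the 3 of the gamma cluster.

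The increases lay near the 5′ end. *Pcdhga2* had 60.7, 63.9 and 67.1 normalized counts in *Pa1F/F* and 194, 215 and 183 in *Pa1-/-* cells (log2 fold change 1.63, SE 0.13, adjusted p = 0.000306), and held under every left-out library. The next genes in order were *Pcdhga3* with 48.0, 35.8 and 58.7 against 88.8, 95.8 and 109 (log2 fold change 1.04, SE 0.22, adjusted p = 0.0105) and *Pcdhgb1* with 37.2, 37.8 and 37.8 against 79.1, 59.7 and 87.2 (log2 fold change 1.004, SE 0.20, adjusted p = 0.00884). *Pcdhga4* followed with 29.0, 20.3 and 12.6 against 44.9, 41.7 and 41.1 (log2 fold change 1.03, SE 0.31, adjusted p = 0.0386). These 4 neighbours were each higher in all *Pa1-/-* libraries than in any control. The last 3 lay close to the threshold and lost the call without single libraries. *Pcdhga3* was at 0.96 without *Pa1-/-* replicate 3 and 0.88 without *Pa1F/F* replicate 2. *Pcdhgb1* was at 0.97 and 0.89 without *Pa1-/-* replicates 1 and 3 and just under 1 without *Pa1F/F* replicate 1. *Pcdhga4* was called only without *Pa1-/-* replicate 3 or *Pa1F/F* replicate 1, with log2 fold changes of 0.78 to 1.36 over the 6 fits and an adjusted p of up to 0.104. *Pcdhga7* (log2 fold change 0.87, SE 0.20, adjusted p = 0.0162) and *Pcdhgb4* (log2 fold change 0.62, SE 0.15, adjusted p = 0.0178) passed the adjusted p alone, and *Pcdhga7* passed both thresholds without *Pa1F/F* replicate 1 (1.04). The first gene of the cluster, *Pcdhga1*, was level (24.5, 39.7 and 36.7 against 30.3, 43.9 and 25.0, log2 fold change -0.03, SE 0.30).

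Along the 20 gamma genes the log2 fold change declined from the 5′ to the 3′ end. The rank correlation of gene order with log2 fold change was -0.80 (Pearson -0.80, n = 20 genes), between -0.78 and -0.73 as single libraries were left out, and -0.78, -0.76 and -0.74 when *Pa1-/-* replicates 1, 2 and 3 were each set against the mean of the controls. Without the C-type genes it was -0.67 (n = 17 genes). The 14 tested beta genes gave 0.35. These correlations are across genes of the same 6 libraries, which are not independent replicates, and 18 of the gamma genes share 2207 to 2318 exon bases with other genes of the cluster beside 2521 to 5564 of their own. The neighbours *Pcdhgb1* and *Pcdhga4*, both called, share more (3248 and 3245 bases, with 1570 of its own in *Pcdhga4*). The pattern was chosen after the values had been seen.

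**Figure D4:**
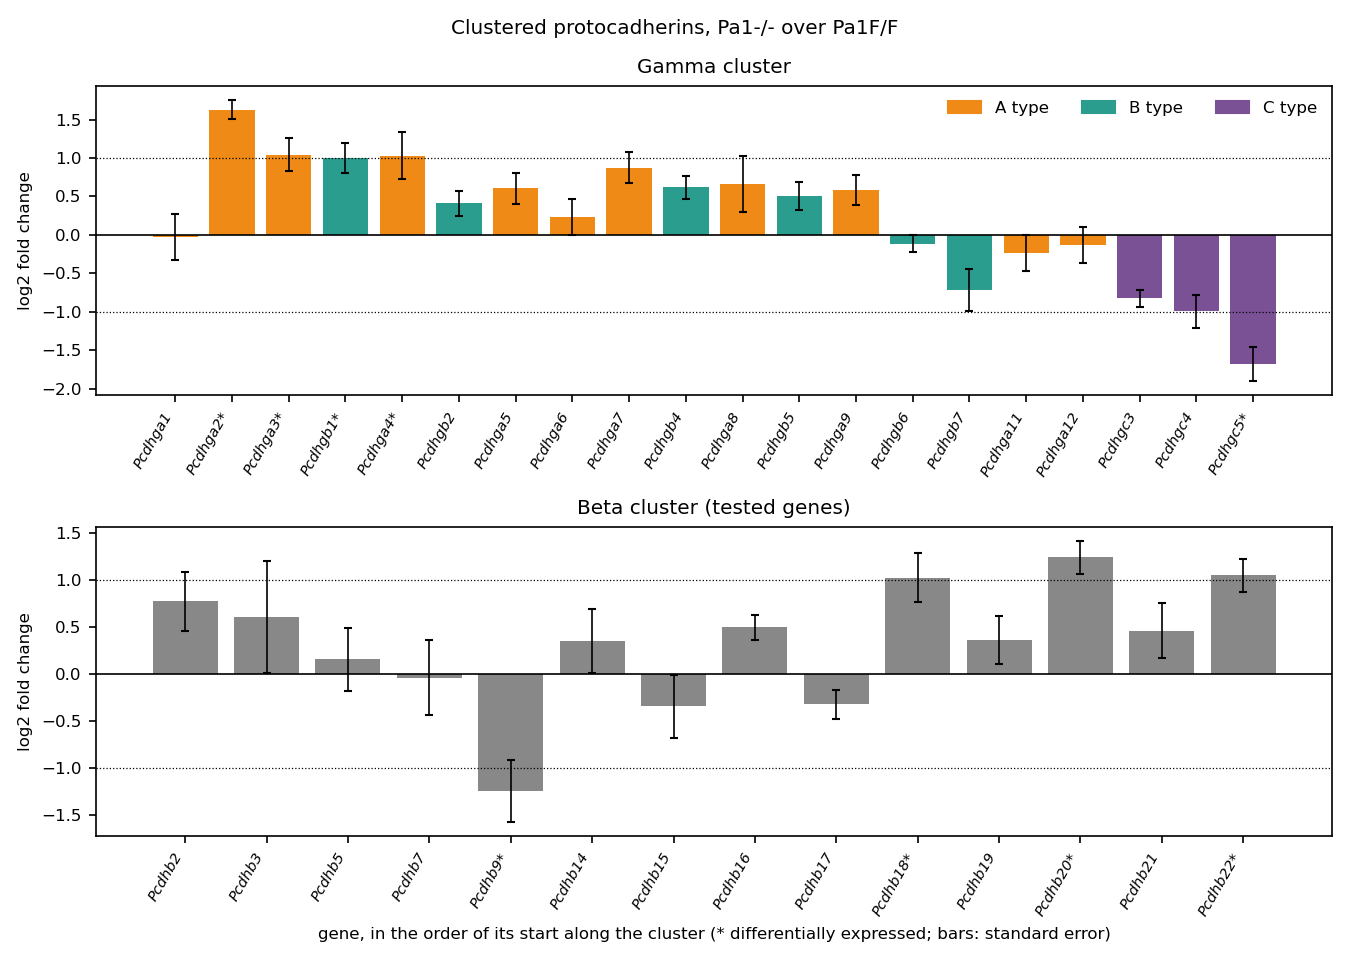
Log2 fold change of *Pa1-/-* over *Pa1F/F* cells (y axis, bars from 0 with the standard error) for the 20 gamma genes (upper panel, coloured by type) and the 14 tested beta genes (lower panel), each in 5′ to 3′ order along its cluster, with an asterisk for differentially expressed genes and dotted lines at a log2 change of 1. In the gamma cluster the bars go from positive near the 5′ end to negative at the 3 C-type genes, and in the beta cluster 3 of the last 5 genes are called higher.

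Of 12 genes known for cohesin, CTCF and the chromatin of the clusters, which govern the choice of variable promoters, 1 was differentially expressed (8.33%, against 12.0% of all tested genes). The adjusted p was passed by 5 (41.7%, against 35.3%), all higher in *Pa1-/-* cells, where 18.2% of all tested genes were higher by it. The cohesin subunit *Stag1* had 1309, 1360 and 1414 normalized counts in *Pa1F/F* and 3368, 3282 and 3462 in *Pa1-/-* cells. The spread within each genotype was small beside the difference (log2 fold change 1.31, SE 0.05, adjusted p = 5.01e-05). *Smc1a* (0.54), *Smchd1* (0.39), *Wiz* (0.35) and *Smc3* (0.29) had smaller log2 fold changes, and that of *Ctcf* was 0.09 without passing the test.

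Nectins and their relatives, immunoglobulin adhesion proteins that work beside cadherins at Sertoli cell junctions, were changed in 3 of 7 tested genes (42.9%, against 12.0% of all tested genes), all higher (5.44% of all tested genes). *Nectin3*, whose protein pairs with nectin 2 across junctions between germ cells and Sertoli cells, had 448, 406 and 442 normalized counts in *Pa1F/F* and 930, 967 and 1042 in *Pa1-/-* cells (log2 fold change 1.18, SE 0.08, adjusted p = 0.000177). *Nectin4* had 43.5, 47.4 and 32.5 against 135, 144 and 104 (log2 fold change 1.63, SE 0.21, adjusted p = 0.00187). *Cadm3* was near the floor in the controls, at 3.62, 1.94 and 3.15 against 26.4, 23.7 and 49.1 (log2 fold change 3.45, SE 0.46, adjusted p = 0.00212). Among 10 tested proteases that cleave cadherins, *Adam10*, the main sheddase of N-cadherin, was higher, at 14827, 14327 and 9479 against 5177, 4819 and 5619 normalized counts (log2 fold change 1.31, SE 0.17, adjusted p = 0.00208), and *Mmp3* was lower, at 3.90, 1.13 and 0 against 16.3, 59.1 and 15.7 (log2 fold change -4.05, SE 0.95, adjusted p = 0.0167). The log2 fold change of *Mmp3* was -5.53 without *Pa1-/-* replicate 1 and -3.14 without *Pa1F/F* replicate 2, and its adjusted p was 0.0585 without *Pa1-/-* replicate 2. These 2 genes are 20.0% of the tested proteases, against 12.0% of all tested genes.

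*Pa1-/-* replicate 3 parted from the other *Pa1-/-* libraries in members and in genes at large. In 53 of the 68 tested members (77.9%, against 67.0% of all tested genes) replicates 1 and 2 lay together on 1 side of all controls. Replicate 3 did not lie on that side in 10 of these (18.9%, against 21.8% over all such genes), namely *Cdh2*, *Cdh11*, *Cdh24*, *Fat4*, *Dchs1*, *Dchs2*, *Clstn2*, *Pcdhb15*, *Pcdhb17* and *Pcdhgb6*. Without that library 20 members (29.4%, against 13.5% of all genes tested in that fit) were differentially expressed, 18 of them among the 23, and *Dchs2* and *Pcdhgc4* were added.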

How the data were processed

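RNA-seq was measured in 6 libraries of mouse Sertoli cells, 3 per genotype, and grouped by the labels. Reads were aligned by the authors with HISAT2 (2.1.0) to GRCm38, and the authors counted them per gene with HTSeq (0.6.0, per the labels), and the counts were deposited without normalization. Strand and overlap settings are not given in the sources used here. The deposited table also holds the authors' mean signal, fold ratio, log2 fold change and p-value per gene, which were not used. Genes were filtered with filterByExpr (minimum count 10, total 15), normalized by TMM and tested with edgeR 4.0.16 in R 4.3.3 (quasi-likelihood F-test, Benjamini-Hochberg adjustment over 14919 genes), with limma 3.58.1 and DESeq2 1.42.0 as alternatives. Calls needed an adjusted p-value under 0.05 and a log2 fold change of 1 or more in either direction. Normalized counts are counts divided by the TMM-scaled library size, times its mean. Lengths per kb are unions of GENCODE exons (GRCm39), matched by Ensembl identifier, and coordinates are those of the deposited table (GRCm38). For sums over clusters the permutation test was exact and two-sided, with a smallest p of 0.1. Intervals (95%, exact) and the floor of 3 counts cover counting error only. On simulated counts with 194 tested genes changed by a log2 value of 2, 97.9% were found again, and unchanged genes made up 1.55% of the calls (14666 genes tested). The simulated libraries were drawn independently, without the close pairs and outlying libraries of the data, so these shares need not hold for the data.

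The members and lists were chosen with earlier results of these data known. Values were given for every differentially expressed member, for *Cdh1* to *Cdh5*, *Cdh11*, *Cdh13*, the Fat, Dchs, Celsr and Clstn genes, *Dsg2*, *Dsc2* and the most abundant member of each subfamily, and for partner genes that were called or had the largest change of their list at an adjusted p-value under 0.05. Others, such as *Pcdh18*, *Pcdh9*, *Pcdhgc4* and *Pcdhga1*, were chosen once their values had been seen. As alternatives, other size factors, the library size alone, the Wald test of DESeq2, limma-voom, no filter, at least 10 counts in every library, no fold threshold, glmTreat, the replicate number as a block, summed close library pairs and leaving out each library were tried.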

Additional observations from a re-analysis of the deposited data

How the results depend on the processing

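Of 23 members called, 8 were called when the close library pairs were summed (3 of 16 higher) and 9 with glmTreat (6 of 16 higher and 3 of 7 lower). Summing leaves 2 libraries per genotype, and glmTreat asks that the change itself exceed the threshold. Over all genes 1791 were called, 883 with the close pairs summed, 538 with glmTreat and 5266 with no fold threshold. Of 13 partner genes called, 2 were called with glmTreat, and 33 passed with no fold threshold. Leaving out single libraries gave 17 to 23 members, 11 to 15 of them higher and 6 to 8 lower, which was 25.0% to 33.8% of the tested members beside 9.65% to 13.5% of all genes tested in those fits. The log2 ratio of the alpha cluster sum was 1.56, and 2.15 over genes past the low count filter, which is *Pcdhac2* alone. The replicate numbers are not stated to mark a shared animal, batch or day. Same-numbered libraries correlated at 0.108, -0.164 and -0.179 in their deviations from the genotype means. Other pairs lay between -0.173 and 0.214, the highest for *Pa1F/F* replicate 2 with *Pa1-/-* replicate 3. Deviations from a mean of 3 libraries are not independent, so these values cannot show whether same-numbered libraries share an origin. With the replicate number as a block, 19 members were called, 18 of them among the 23, 12 higher and 7 lower, with 1558 genes in all and 13 partner genes. Of 512 alternative fold changes of the 37 tested members that the naming rule covers, none was called in the opposite direction, 49 lost the call and 3 gained it (all *Dchs2*), and the other 460 stayed on their side of the thresholds. Among these 460, 7 values of 3 uncalled members had the other sign, *Cdh11* (-0.40) and *Clstn2* (-0.37) without *Pa1-/-* replicate 3 and, by at most 0.04 below 0, with the block and limma-voom, and *Fat1* (0.06) without *Pa1-/-* replicate 3. Outside that rule, *Pcdhgc4* also passed with the block (-1.02). At these depths, members under the low count filter could not be compared.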
